A study of Rattus norvegicus with 24 samples.

Results

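The rat major histocompatibility complex, called RT1, and the genes that cut, carry and load peptides for it were followed in 24 RNA-seq libraries from kidney inner medulla and heart ventricle. The set holds every gene whose symbol begins with RT1-, together with B2m, Tap1, Tap2, Tapbp, Psmb8, Psmb9, Psmb10, Cd74, Ciita and Nlrc5, provided that its mean reached 0.5 CPM (read counts scaled to a common library total) in at least 1 of the 3 deposited tables. Of 58 rows with such a symbol, 46 met this level, out of 36856 genes in each table. RT1-CE6 and RT1-DOb stood just inside it, at 0.862 and 0.513 CPM in the table where each was highest, and RT1-T24-2 and RT1-M6-2 just outside, at 0.468 and 0.393 CPM. The 46 comprise 27 class I and 9 class II RT1 genes and the 10 named partners and regulators.

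The rats were Sprague-Dawley, an outbred stock, labelled female, of 120 to 200 g, 4 per group, all on a synthetic diet for 7 days. In the aldosterone experiment the papilla of the kidney came from rats given aldosterone by osmotic minipump at 12 µg per day on 0.4% Na, against controls on 0.4% Na without the hormone; the labels do not say whether controls carried a pump. In the low-salt experiment papilla and a piece of ventricle came from rats on 0.01 to 0.02% Na, against rats on the 0.4% Na diet that the titles call high salt and the protocol calls control. Libraries 1 and 2 of each group are batch 1 in the labels, and libraries 3 and 4 are batch 2, so every batch holds both groups of its experiment but different rats. Library totals ran between 24299423 and 38318764 counts.

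Tissue markers matched the labels, apart from a trace in heart: the 5 inner medulla markers summed to at most 35.2 normalised CPM in a heart library, against at least 8879 in the inner medulla libraries. The sex label was not borne out in the low-salt experiment. Xist, the RNA of the inactive X chromosome, was 239 to 454 normalised CPM in the 8 aldosterone-experiment libraries, where 4 Y-linked genes summed to at most 0.319. In the 16 low-salt libraries Xist was at most 0.0913 and the Y-linked genes summed to at least 144 normalised CPM. No level is compared between the 2 kidney experiments.

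Class I molecules present peptides from inside the cell to CD8 T cells on nearly all nucleated cells. Their heavy chain, from genes such as RT1-A1 to RT1-A3, pairs with beta-2-microglobulin (B2m). Immunoproteasome subunits (Psmb8, Psmb9, Psmb10) cut the peptides, the transporter Tap1-Tap2 moves them into the endoplasmic reticulum, tapasin (Tapbp) helps load them, and NLRC5 drives class I transcription. Class II molecules, made of the RT1-B and RT1-D chains, present peptides from outside the cell to CD4 T cells. They are held by the invariant chain (Cd74), loaded with the help of RT1-DM, tempered by RT1-DO and driven by CIITA, and are known mainly from dendritic cells, macrophages and B cells. Interferon gamma raises both sets. The RT1 region is highly polymorphic, and strains differ in the number of class I genes they carry.

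Near-identical class I genes share 50-base reads, which Salmon splits by estimation, so the value of a single class I gene is less certain than the sum over them. In the RefSeq GRCr8 annotation some of these loci also overlap: RT1-O1l1 with RT1-N2, RT1-S2 and RT1-O1, RT1-T24-4 with RT1-T24-3, RT1-CE11 with RT1-CE10, RT1-CE5 with RT1-CE4 and RT1-CE6, and RT1-CE12 with RT1-CE13 and RT1-CE14. The genome build behind the deposited counts is not given in the sources used here.

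Promoters of the genes that the results turn on show which regulatory motifs they share. RefSeq windows on GRCr8, of 250 bases before and 50 after the annotated start, were found for 42 of the 46 genes. Those printed here are the 4 class I genes that differed between batches, the 2 that were low together in some libraries, RT1-Da as the class II gene with the smallest p under aldosterone, and Tap2. Capitals mark matches, on either strand, to 4 motifs chosen after these promoters were read, with the letters of the first and last taken from RT1-A3 and RT1-Da: enhancer A (GGGGATTCCCC), an interferon response element core (TTTCNNTTC), the CCAAT box (CCAAT) and the class II X box (AGNAACNGATG).
RT1-A3, chr20:4849201-4849500, plus strand: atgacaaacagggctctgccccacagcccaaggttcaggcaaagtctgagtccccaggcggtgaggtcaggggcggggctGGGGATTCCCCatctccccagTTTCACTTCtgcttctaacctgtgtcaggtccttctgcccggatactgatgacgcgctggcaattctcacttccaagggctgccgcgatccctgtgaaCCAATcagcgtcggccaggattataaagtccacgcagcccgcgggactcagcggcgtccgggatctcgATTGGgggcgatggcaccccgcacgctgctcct
RT1-CE15, chr20:3283721-3284020, minus strand: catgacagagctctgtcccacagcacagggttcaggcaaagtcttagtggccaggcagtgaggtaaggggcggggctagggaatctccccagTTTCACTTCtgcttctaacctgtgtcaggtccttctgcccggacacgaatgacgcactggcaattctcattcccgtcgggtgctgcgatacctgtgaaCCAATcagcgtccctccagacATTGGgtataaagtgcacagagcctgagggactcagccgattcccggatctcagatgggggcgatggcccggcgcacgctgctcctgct
RT1-A1, chr20:4906959-4907258, plus strand: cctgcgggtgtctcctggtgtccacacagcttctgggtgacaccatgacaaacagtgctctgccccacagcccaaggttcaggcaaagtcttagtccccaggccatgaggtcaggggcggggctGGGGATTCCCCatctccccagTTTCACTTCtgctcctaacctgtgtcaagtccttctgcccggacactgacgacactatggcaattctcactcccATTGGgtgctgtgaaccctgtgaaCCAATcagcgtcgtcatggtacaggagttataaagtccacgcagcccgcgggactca
RT1-CE10, chr20:3384930-3385229, minus strand: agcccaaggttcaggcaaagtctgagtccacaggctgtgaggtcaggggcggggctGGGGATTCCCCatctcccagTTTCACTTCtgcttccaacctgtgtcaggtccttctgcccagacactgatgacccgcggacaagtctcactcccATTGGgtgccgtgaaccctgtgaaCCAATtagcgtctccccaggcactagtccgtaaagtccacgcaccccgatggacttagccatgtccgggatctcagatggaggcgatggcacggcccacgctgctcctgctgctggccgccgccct
RT1-CE16, chr20:3265394-3265693, minus strand: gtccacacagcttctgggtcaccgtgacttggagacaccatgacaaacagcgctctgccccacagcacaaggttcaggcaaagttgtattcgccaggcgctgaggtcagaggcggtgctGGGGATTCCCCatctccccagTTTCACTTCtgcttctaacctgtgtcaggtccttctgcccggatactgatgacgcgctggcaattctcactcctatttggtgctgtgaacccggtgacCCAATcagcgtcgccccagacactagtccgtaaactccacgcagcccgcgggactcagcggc
RT1-O1l1, chr20:2627184-2627483, plus strand: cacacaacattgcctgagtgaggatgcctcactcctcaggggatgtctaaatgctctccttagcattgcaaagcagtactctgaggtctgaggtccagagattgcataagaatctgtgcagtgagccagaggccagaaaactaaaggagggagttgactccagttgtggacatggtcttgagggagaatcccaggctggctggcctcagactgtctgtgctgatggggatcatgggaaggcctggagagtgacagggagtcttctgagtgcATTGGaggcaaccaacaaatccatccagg
RT1-Da, chr20:4515165-4515464, plus strand: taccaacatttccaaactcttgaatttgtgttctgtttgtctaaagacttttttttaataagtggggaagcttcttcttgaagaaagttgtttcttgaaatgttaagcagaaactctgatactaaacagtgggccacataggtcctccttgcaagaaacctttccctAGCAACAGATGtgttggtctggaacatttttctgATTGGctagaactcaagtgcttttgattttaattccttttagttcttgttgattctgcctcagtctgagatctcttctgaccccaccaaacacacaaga
Tap2, chr20:4652247-4652546, minus strand: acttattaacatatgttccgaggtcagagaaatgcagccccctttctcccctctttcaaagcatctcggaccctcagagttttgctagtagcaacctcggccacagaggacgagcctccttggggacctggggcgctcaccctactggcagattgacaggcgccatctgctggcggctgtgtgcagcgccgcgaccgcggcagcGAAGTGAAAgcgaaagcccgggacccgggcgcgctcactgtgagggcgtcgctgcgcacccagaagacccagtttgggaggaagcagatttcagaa

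Enhancer A was found in 8 of 26 class I promoters (30.8%), none of the 8 class II RT1 promoters and 0.0627% of all 33469 promoters. The interferon response element core was in 12 of 26 class I promoters (46.2%), against 8.54% of all promoters. RT1-A3, RT1-A1, RT1-CE10 and RT1-CE16 hold enhancer A, the interferon core and a CCAAT box in the same order, and RT1-CE15 holds the last 2 of these. In the RT1-O1l1 window the CCAAT box was found, a motif in 37.5% of all promoters, and neither of the other class I motifs. The X box was found in 4 of 8 class II RT1 promoters, RT1-Da, RT1-Db1, RT1-Db2 and RT1-DOb, and in 0.248% of all promoters. RT1-A3 and RT1-Da, which gave the letters of enhancer A and the X box, are counted in these shares. The shares are therefore not independent of the choice of letters. A match is only a run of letters, and the motifs do not overlap in these windows.

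The members varied widely between libraries, taken over all 8 of a table, both treatments and both batches. Levels are normalised CPM, scaled by TMM (trimmed mean of M-values) within each table. On log2(normalised CPM + 0.5), the highest library exceeded the lowest by more than 4-fold for 7 of 45 tested members in the aldosterone experiment, against 4.45% of all genes tested. Of these 7, Cd74, RT1-Bb, RT1-CE10 and RT1-T24-3 were highest in an aldosterone library and lowest in a control. In low-salt inner medulla the same held for 8 of 44 (all genes 3.94%), and in heart for 8 of 43 (all genes 4%). The median member spanned 2.04-fold, 2.29-fold and 1.97-fold in the aldosterone, low-salt kidney and heart tables, where the median gene spanned 1.56-fold, 1.52-fold and 1.45-fold. Without low-salt library 3 the count was 3 in kidney and 3 in heart. The residual SD within treatment and batch was 0.277, 0.359 and 0.355 log2 units for the median member, against 0.194, 0.173 and 0.157 for the median gene.

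RT1-O1l1, a class I gene of the O region, was either well detected or near 0 in inner medulla. It measured 0.496, 0.369, 0.808 and 17.4 normalised CPM in aldosterone libraries 1 to 4, against 17.3, 0.277, 16.5 and 21.2 in controls. In inner medulla it was 27.1, 0.638, 30.4 and 20.2 on low salt and 20.8, 15.7, 13.2 and 0.477 on high salt. In heart it was 1.43, 0.148, 1.61 and 0.361 on low salt and 0.482, 1.18, 0.531 and 0 on high salt. The lowest levels stood in aldosterone 1, 2 and 3 and control 2, and in low salt 2 and high salt 4 of both tissues, while treatment groups overlapped in every table.

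RT1-CE16, a class I gene of the CE region, was low in the same libraries as RT1-O1l1. Its level was 123, 94.9, 182 and 779.7 normalised CPM under aldosterone and 512, 115, 749.9 and 782 in controls. In inner medulla it was 691, 93.2, 894 and 449.6 on low salt and 625, 791, 453 and 95.3 on high salt. In heart it was 90.4, 29.1, 165 and 68.7 on low salt and 88.7, 127, 69.0 and 33.4 on high salt. The groups overlapped in every table, and the libraries fell apart in the same way in inner medulla and in heart.

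RT1-A3, RT1-A1, RT1-DMb and RT1-Bb followed another split. RT1-A3, a gene of the classical A region, was 161, 42.8, 122 and 40.7 normalised CPM in low-salt and 50.2, 157, 32.3 and 39.6 in high-salt inner medulla. In heart it was 19.4, 12.0, 24.6 and 7.65 on low salt and 10.5, 31.1, 7.34 and 13.6 on high salt. Low salt 1, low salt 3 and high salt 2 were the 3 highest in both tissues. RT1-A1 was also highest in those libraries of both tissues, at 125, 53.9, 89.5 and 40.8 on low salt and 53.3, 121, 33.4 and 49.2 on high salt in inner medulla. RT1-DMb, a chain of the class II loading helper, was 17.3, 9.25, 13.0 and 6.57 on low salt and 7.08, 17.2, 4.88 and 6.15 on high salt in inner medulla, and 41.6, 21.1, 36.2 and 15.8 on low salt and 17.6, 34.0, 14.0 and 19.2 on high salt in heart. It too was highest in these 3 libraries of each tissue. RT1-Bb, also of class II, was highest in low salt 1, low salt 3 and high salt 2 as well. It was 6.40, 9.92 and 8.05 in these libraries of inner medulla and 21.4, 28.6 and 21.2 in those of heart. RT1-DMb and RT1-Bb were picked out here after their values were seen. RT1-CE15, of the CE region, was 43.8, 22.3, 32.1 and 19.3 on low salt and 26.6, 40.8, 17.4 and 21.0 on high salt in inner medulla, and 6.08, 6.53, 8.0 and 3.38 on low salt and 5.56, 8.78, 2.76 and 6.63 on high salt in heart. It followed this split in inner medulla but not in heart, where low salt 2 and high salt 4 exceeded low salt 1.

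RT1-N2 and RT1-T24-1, both class I genes outside the A and CE regions, were low in 1 library of each tissue. RT1-N2 was 21.2, 45.0, 0.727 and 22.5 normalised CPM in low-salt and 21.8, 25.6, 19.2 and 55.6 in high-salt inner medulla, and 1.87, 6.97, 0.0895 and 2.82 in low-salt and 4.67, 3.61, 2.23 and 7.73 in high-salt heart. RT1-T24-1 was 11.6, 20.2, 1.26 and 8.28 in low-salt and 12.5, 14.0, 8.02 and 16.6 in high-salt inner medulla, and 4.37, 14.8, 0.328 and 2.26 in low-salt and 6.71, 7.92, 4.95 and 11.3 in high-salt heart. Low salt 3 was the lowest library for both genes in both tissues. In the aldosterone experiment neither gene had such a library: RT1-N2 was 29.7, 24.9, 41.6 and 25.1 under aldosterone and 15.7, 30.5, 19.1 and 32.9 in controls, and RT1-T24-1 was 32.3, 30.1, 34.0 and 20.7 under aldosterone and 9.29, 22.0, 11.1 and 12.4 in controls.

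RT1-T24-3, whose annotated locus overlaps that of RT1-T24-4, spanned 4.66-fold, 6.36-fold and 5.54-fold over the libraries of the aldosterone, low-salt kidney and heart tables. It was 40.0, 44.7, 77.3 and 19.2 normalised CPM under aldosterone and 16.2, 40.0, 20.5 and 33 in controls. In inner medulla it was 21.9, 50.9, 7.58 and 17.9 on low salt and 28.6, 20.8, 24.2 and 42.6 on high salt, and in heart 20.1, 55.4, 9.58 and 17.7 on low salt and 28.6, 23.1, 21.0 and 39.6 on high salt. Low salt 3 was again lowest, and low salt 2 highest, in both tissues. Kidney and heart libraries of the same diet and number therefore carried the same highs and lows for these genes, although the labels do not say that they came from the same rat. Over all genes the deviations of same-numbered kidney and heart libraries correlated at r of 0.05 to 0.36, and the same number was the best match for 6 of 8 libraries; over the members r was 0.35 to 0.94, and the same number was the best match for 3 of 8. These are correlations across genes, which are not independent. Kidney and heart were treated as separate libraries, with the replicate block as an alternative.

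**Figure D1:**
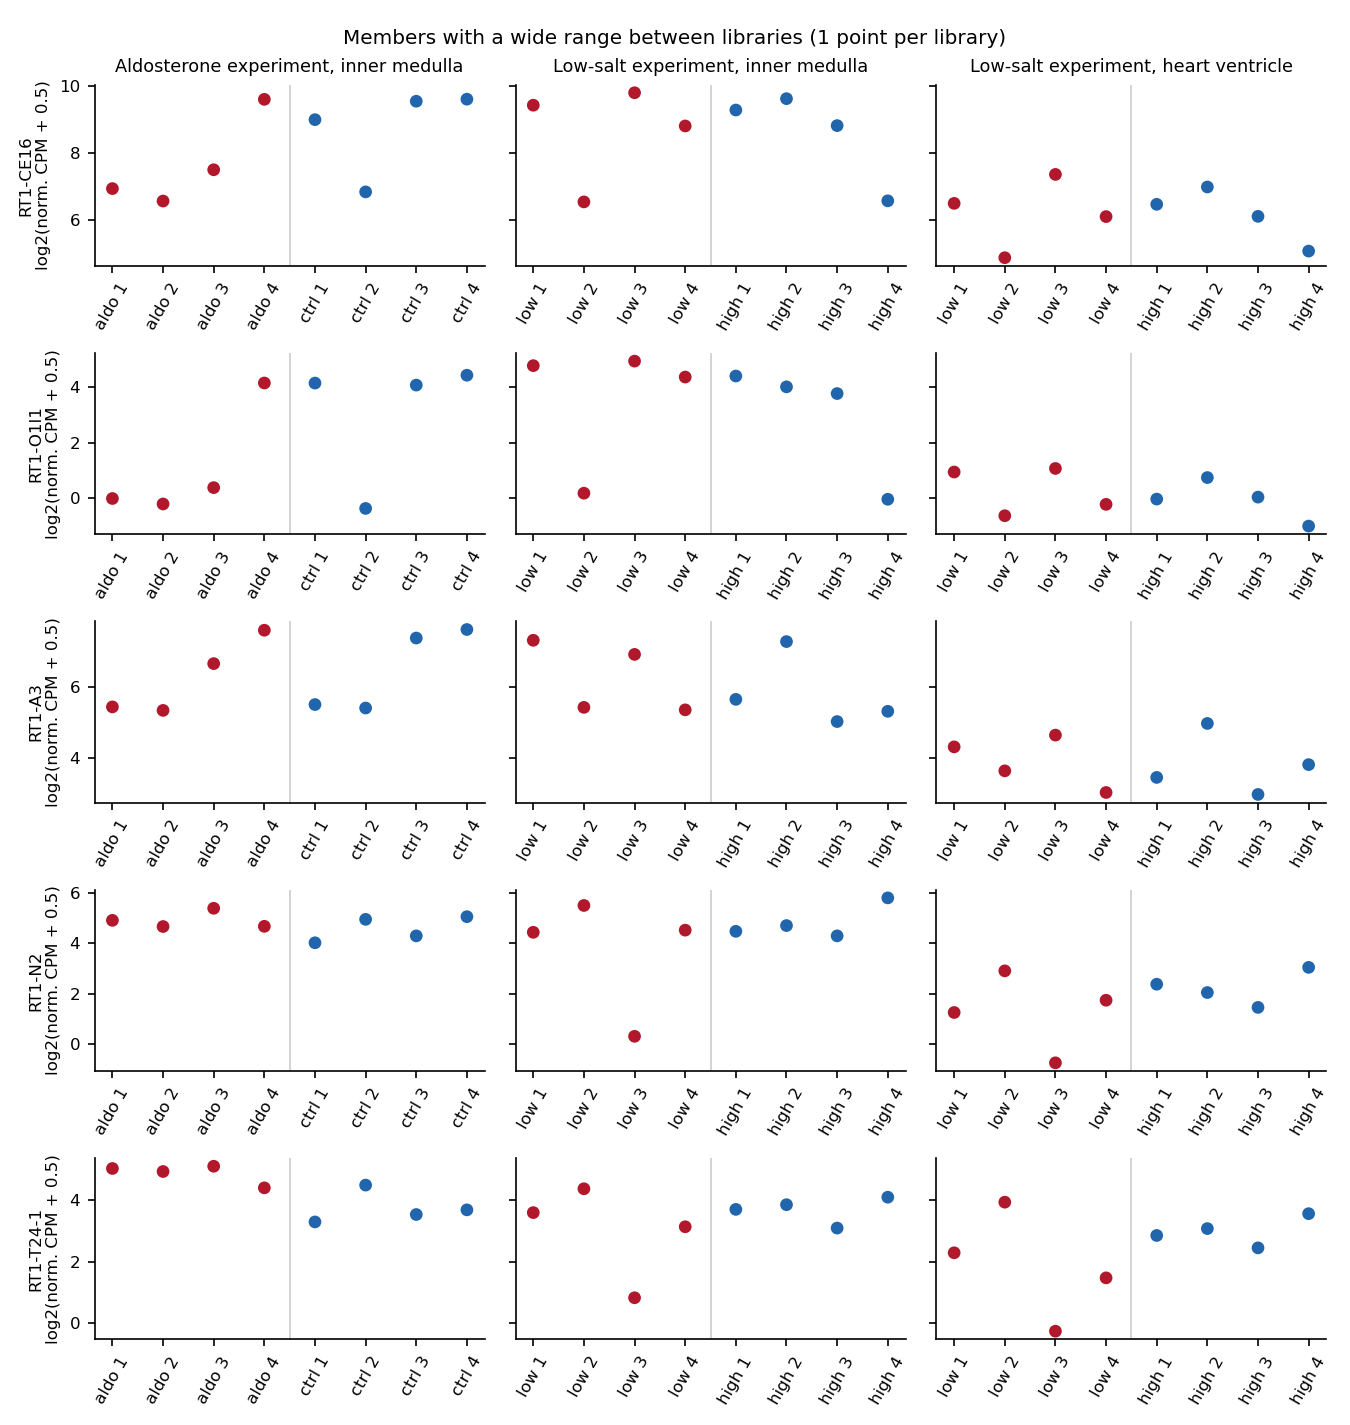
Level of 5 class I genes in each library, as log2(normalised CPM + 0.5), with 1 point per library; rows are genes and columns the 3 tables, red points are aldosterone or low salt and blue points control or high salt, numbered by library. RT1-CE16 and RT1-O1l1 are low in the same libraries, RT1-A3 is high in low salt 1, low salt 3 and high salt 2 of both tissues, and RT1-N2 and RT1-T24-1 are lowest in low salt 3 of both tissues.

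B2m, the invariant light chain, spread far less. It was 939, 882, 1515 and 1226 normalised CPM under aldosterone and 1026, 1106, 1100.0 and 1292 in controls. In inner medulla it was 918, 899.9, 767 and 885 on low salt and 1070.0, 1022, 804 and 854 on high salt, and in heart 473, 685, 487 and 511 on low salt and 695, 599, 459 and 674 on high salt. The summed class I RT1 level was 2250.3 ± 661 under aldosterone and 2342 ± 560.4 in controls (SD, n = 4 each). In low-salt inner medulla that sum was 2189 ± 430.4, and 2155 ± 527 on high salt.

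In the aldosterone experiment 4 class I genes were higher in batch 2 than in batch 1. RT1-A3 was 102, 196, 168 and 199 normalised CPM in the batch 2 libraries (aldosterone 3 and 4, control 3 and 4), against 43.2, 40.3, 45.2 and 42.2 in batch 1 (aldosterone 1 and 2, control 1 and 2). RT1-CE15, in the same library order, was 44.2, 43.6, 39.4 and 49.1 in batch 2 and 19.9, 15.8, 14.3 and 18.6 in batch 1. The batches did not overlap for either gene, with aldosterone and control libraries on both sides.

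The log2 difference (batch 2 over batch 1, ± SE) was 1.95 ± 0.19 for RT1-A3, with an adjusted p of 0.0167 in edgeR's quasi-likelihood test with Benjamini-Hochberg adjustment over all 17671 genes tested. RT1-CE15 differed by 1.36 ± 0.13 (adjusted p = 0.0127). RT1-A1 was 93.9, 141, 125 and 141 in batch 2 and 58.3, 46.5, 35.7 and 48.8 in batch 1, a difference of 1.41 ± 0.18 (edgeR adjusted p = 0.0375). RT1-CE10 was 101, 57.1, 54.0 and 64.4 in batch 2 and 28.1, 29.0, 27.3 and 23.9 in batch 1, a difference of 1.34 ± 0.17 (edgeR adjusted p = 0.0389). Thus 4 of 45 members were called, all higher, against 0.136% of all genes called in either direction and 0.113% higher. Groups did not overlap for 9 members, all higher in batch 2, against 3.49% of all genes.

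Of the 45 members 33 were positive, with a median of 0.29 log2 units. Tap1, the partner of Tap2, differed by 0.56 (edgeR adjusted p = 0.141), Psmb9 by 0.56 (0.289), Nlrc5 by 0.55 (0.306) and B2m by 0.38 (0.32) on the log2 scale. Of 24 interferon-induced genes, 1 was called, Irgm, an interferon-inducible GTPase, at 0.83 (edgeR adjusted p = 0.0375); 23 were positive, with a median of 0.61 against -0.02 for all genes tested. Macrophage and dendritic cell markers were negative for 11 of 11, with a median of -0.56. Their part in the batch difference was not tested.

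Batch holds different rats, so batch and rat cannot be told apart, and whether a call held depended on single libraries. The count of called members was 0 without aldosterone 1 or without aldosterone 2, 1 without control 1 or without control 2, 2 without control 4, and 3 or 4 without each of the others. RT1-CE15 kept its call in 6 of the 8 fits that left out 1 library, RT1-A3 in 4, RT1-CE10 in 2 and RT1-A1 in 1. The log2 difference itself moved less in these 8 fits. It ranged over 1.77 to 2.16 for RT1-A3, 1.28 to 1.45 for RT1-CE15, 1.28 to 1.59 for RT1-A1 and 1.15 to 1.46 for RT1-CE10. The count of called members was 0 within the aldosterone libraries alone and 1 within the control libraries alone. In the low-salt kidney table the same 4 genes had negative differences between batch 2 and batch 1. RT1-A3 was at -0.92 ± 0.56 and RT1-CE15 at -0.59 ± 0.26 (edgeR adjusted p = 0.473 and 0.347). Those batches hold other rats than the batches of the aldosterone experiment, so the signs of the 2 experiments cannot be set against each other. The difference between the experiments was not tested. In low-salt kidney no member was called by edgeR between batches (0% of all genes called); unadjusted, 14 members had a p under 0.05, all lower (14.7% of all genes in either direction), and DESeq2 called 7 lower. There 40 of 44 members were negative, with a median of -0.38, as were 23 of 24 interferon-induced genes, with a median of -0.52, and 12 of 12 macrophage and dendritic cell markers, with a median of -0.36. In heart edgeR called 0 of 43 members between batches (all genes 2.24%), with 4 below 0.05 unadjusted, 1 higher and 3 lower (all genes 19.6%), and 0 by DESeq2. The shares of all genes that DESeq2 called between batches are not given here.

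**Figure D2:**
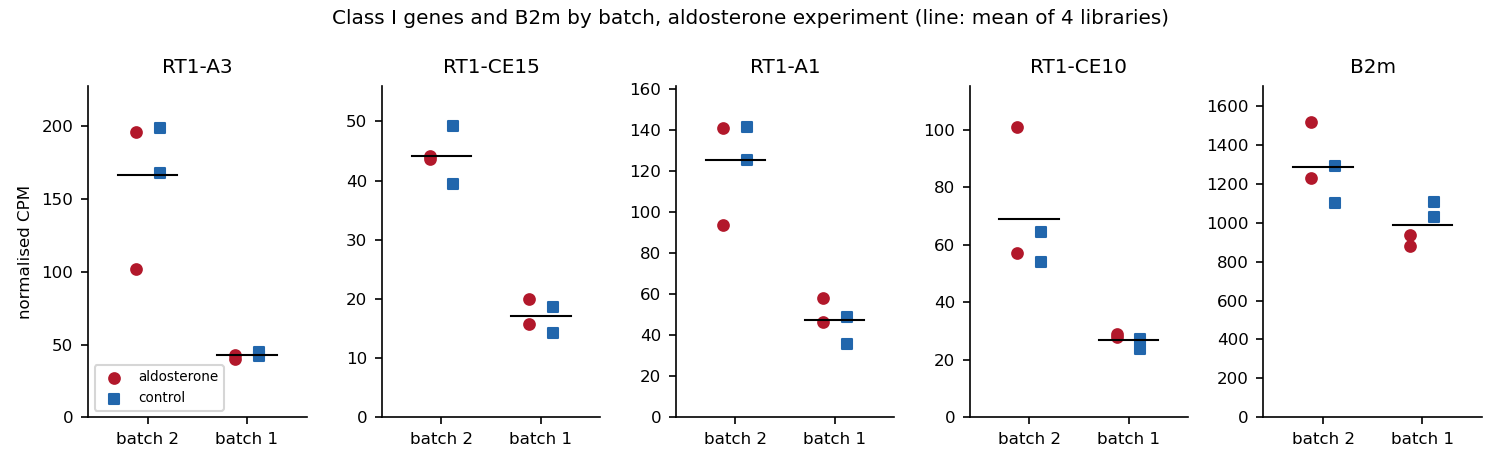
Normalised CPM of RT1-A3, RT1-CE15, RT1-A1, RT1-CE10 and B2m in the aldosterone experiment, batch 2 left of batch 1; circles are aldosterone libraries, squares control libraries and lines the mean of 4 libraries. The 4 batch 2 libraries of each RT1 gene lie above all 4 of batch 1, with both treatments on each side.

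Most class II genes were at higher levels in the aldosterone libraries than in the controls, short of the threshold. Cd74, the invariant chain, was 95.6, 117, 126 and 77.9 normalised CPM under aldosterone, against 52.5, 48.4, 60.2 and 28.6 in controls. RT1-Da, the alpha chain of RT1-D, was 16.9, 23.5, 22.0 and 13.8 under aldosterone, against 8.89, 6.69, 11.2 and 5.88 in controls. RT1-Ba, the alpha chain of RT1-B, was 13.8, 18.0, 15.4 and 12.2 under aldosterone, against 7.69, 5.44, 9.77 and 4.30 in controls. All 4 aldosterone libraries exceeded all 4 controls for each of these genes. The beta chain gene RT1-Db1 was 7.48, 13.0, 12.2 and 8.99 under aldosterone and 3.86, 3.53, 7.06 and 3.73 in controls, also without overlap. RT1-Bb was 7.62, 13.6, 7.66 and 8.15 under aldosterone and 3.35, 2.88, 7.23 and 2.75 in controls, and Ciita, the class II transcription regulator, was 1.56, 1.62, 1.84 and 2.40 under aldosterone and 0.874, 0.797, 1.31 and 0.716 in controls. The groups did not overlap for either gene. RT1-Db2, at 0.922, 2.29, 1.29 and 0.519 under aldosterone and 1.06, 0.416, 0.335 and 0.339 in controls, did overlap.

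The log2 fold change (aldosterone over control, ± SE) was 1.22 ± 0.25 for RT1-Da and 1.14 ± 0.24 for Cd74, each with an adjusted p of 0.2 in edgeR's quasi-likelihood test. It was 1.22 ± 0.27 for RT1-Db1, 1.12 ± 0.27 for RT1-Ba and 0.99 ± 0.25 for Ciita (edgeR adjusted p = 0.229, 0.249 and 0.266). By edgeR 0 of 45 members were called, as were 0% of all genes. Unadjusted, 10 members had a p under 0.05, all higher, against 9.9% of all genes in either direction. DESeq2 called 6 members, all higher: Cd74, RT1-Da, RT1-Ba, RT1-Bb, RT1-Db1 and RT1-T24-1. The share of all genes that DESeq2 called is not given here, so this count has no background beside it. Groups did not overlap for 6 members, all higher under aldosterone, against 3.15% of all genes. Over the 17 alternatives tried, the fold change stayed within 0.95 to 1.37 for Cd74 and 1.07 to 1.46 for RT1-Da, and was 1.08 and 1.38 within batch 1 alone and 1.20 and 1.07 within batch 2 alone.

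Of the 9 class II RT1 genes and Cd74, 9 were tested and 9 were positive, with a median log2 fold change of 1.14 against 0.00 for all genes tested. The summed level of class II RT1 genes and Cd74 was 184 ± 33.4 normalised CPM under aldosterone and 90.6 ± 24.2 in controls (SD, n = 4 each). In pieces of tissue, more cells with class II and more RNA per cell cannot be told apart. Macrophage and dendritic cell markers were positive for 11 of 11 tested, with a median of 0.36 and summed levels of 44.4 to 76.6 under aldosterone and 29.4 to 73.4 in controls. Xcr1 and Clec9a, markers of a dendritic cell subset, were at 0 in 5 and 4 of the 8 libraries. Pan-leukocyte markers were positive for 6 of 6, with a median of 0.47 and sums of 34.4 to 69.3 under aldosterone and 22.3 to 50.1 in controls. B cell markers were positive for 1 of 3 tested, with sums of 16.9 to 27.6 under aldosterone and 16.6 to 43.1 in controls. Erythroid markers were positive for 6 of 6, with a median of 0.82. The list holds Slc4a1, an anion exchanger also known from intercalated cells of the kidney, and without it the summed level was 1147 to 2948 under aldosterone and 775 to 1483 in controls. None of these markers was called by edgeR, and their part in the class II values was not tested.

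The DM genes and class I lay closer to no difference. RT1-DMb differed by 0.40 ± 0.17 and RT1-DMa by 0.40 ± 0.18, with overlapping groups. The 27 class I RT1 genes had a median of 0.09, with 20 positive and 7 negative, and 2 had an unadjusted p under 0.05: RT1-T24-1, at 1.11 ± 0.26 (edgeR adjusted p = 0.249), and RT1-CE3. B2m differed by -0.02 ± 0.12, Tap1 by -0.11 and Tap2 by 0.01. RT1-CE16 and RT1-O1l1 had fold changes of -1.10 ± 0.54 and -2.41 ± 1.31, with libraries near the low level of each gene in both groups.

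**Figure D3:**
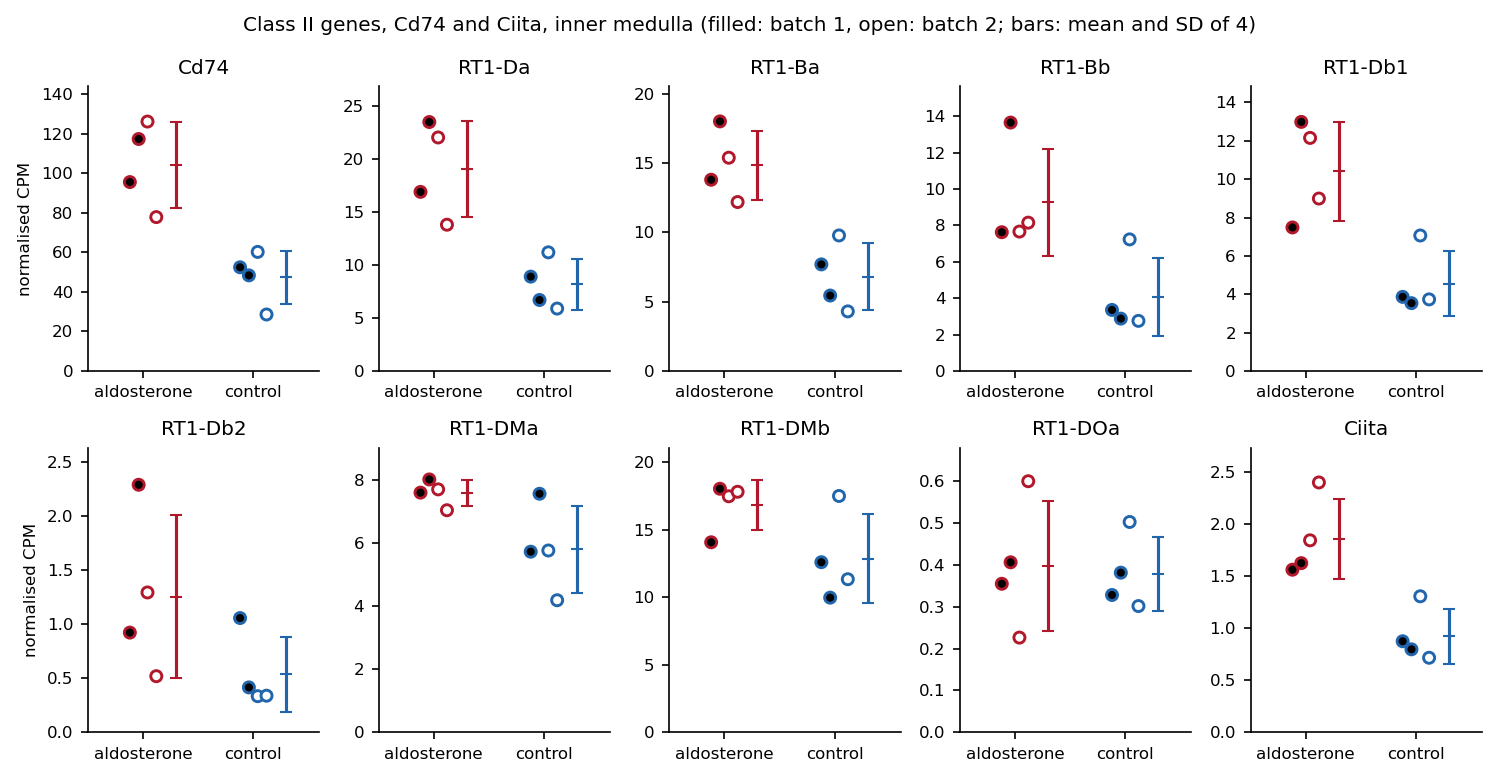
Normalised CPM of 8 class II RT1 genes, Cd74 and Ciita in inner medulla, aldosterone left of control, with filled points for batch 1, open points for batch 2 and bars for the mean and SD of 4 libraries. The groups do not overlap for Cd74, RT1-Da, RT1-Ba, RT1-Bb, RT1-Db1 and Ciita, none of which passed the adjusted threshold in edgeR, and overlap for the other 4 genes.

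In inner medulla 1 of 44 members was called by diet, Tap2, a subunit of the peptide transporter, which was higher on low salt. Tap2 was 58.7, 50.3, 43.7 and 37.8 normalised CPM on low salt, against 36.3, 37.6, 25 and 32.9 on high salt. The groups did not overlap, but the lowest low-salt library (37.8) and the highest high-salt library (37.6) nearly touched. The log2 fold change was 0.53 ± 0.10 (edgeR adjusted p = 0.0446 over 18449 genes tested). Over all genes 2.46% were called, 1.09% higher, so the share of members called was near that of all genes called in either direction. The fold change was 0.56 in batch 1 alone and 0.50 in batch 2 alone (edgeR adjusted p = 0.207 and 0.264). The call was lost in 7 of the 8 fits that left out 1 library, with adjusted p from edgeR of 0.071 to 0.122, and held without high salt 4 only; it was also lost without the batch term, at 0.138.

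Tap1, Nlrc5 and the immunoproteasome subunits were not called. Nlrc5, the class I transcription regulator, was 14.0, 10.4, 10.8 and 10.7 on low salt and 9.52, 8.44, 8.44 and 8.47 on high salt, without overlap, and differed by 0.39 ± 0.12 (edgeR adjusted p = 0.133). Unadjusted, 4 members had a p under 0.05, all higher on low salt, against 19.6% of all genes in either direction. DESeq2 called 2 members, Nlrc5 and Tap2, and its share of all genes is not given here. Psmb8, Psmb9 and Tap1 differed by 0.46, 0.36 and 0.18, with adjusted p of 0.282, 0.245 and 0.231 in edgeR, and Psmb10 by -0.05 (0.899). Groups did not overlap for 2 of 44 members, both higher on low salt, against 4.83% of all genes. The 27 class I RT1 genes had a median of -0.06, with 11 positive and 16 negative and none at an unadjusted p under 0.05. Irf1, an interferon-responsive activator outside the set, differed by 0.53 (edgeR adjusted p = 0.0701). Macrophage and dendritic cell markers were positive for 3 of 12 tested and pan-leukocyte markers for 1 of 6, with medians of -0.10 and -0.11, and none was called.

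In heart Tap2 lay on the other side. It was 11.0, 15.4, 14.8 and 14.5 normalised CPM on low salt, against 17.5, 16.3, 16.1 and 18.4 on high salt, again without overlap, with a log2 fold change of -0.29 ± 0.11 (edgeR adjusted p = 0.403). The difference between the kidney and heart responses was itself tested over 16 libraries: it was 0.83 ± 0.16 (edgeR adjusted p = 0.0345), the only member called of 46, against 0.83% of all genes called and 0.376% called higher. With a replicate block of kidney and heart libraries the call was lost (edgeR adjusted p = 0.0773). The call was lost in 11 of 16 fits without 1 library, with adjusted p up to 0.0839 in edgeR, and the value ranged over 0.72 to 0.92 in all 23 alternatives. It held without low salt 2, low salt 4 or high salt 4 of kidney and without low salt 2 or low salt 3 of heart.

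No member passed the threshold for diet in heart: edgeR called 0 of 43, against 0.0517% of all genes, DESeq2 called 0, and unadjusted 1 member was higher and 3 were lower with a p under 0.05 (all genes 10.6%). Groups did not overlap for Cd74, higher, and Tap2, lower, against 2.69% and 2.04% of all genes. The smallest p belonged to Psmb10, an immunoproteasome subunit, which was 15.8, 17.8, 14.6 and 13.9 on low salt and 19.9, 18.5, 16.6 and 18.9 on high salt. Its log2 fold change was -0.25 ± 0.08 (edgeR adjusted p = 0.301). Cd74 was 563, 500.1, 505 and 515 on low salt and 498, 441, 448 and 408 on high salt, a difference of 0.22 ± 0.07 (edgeR adjusted p = 0.318). RT1-CE4 differed by -0.37 ± 0.13 (edgeR adjusted p = 0.385).

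**Figure D4:**
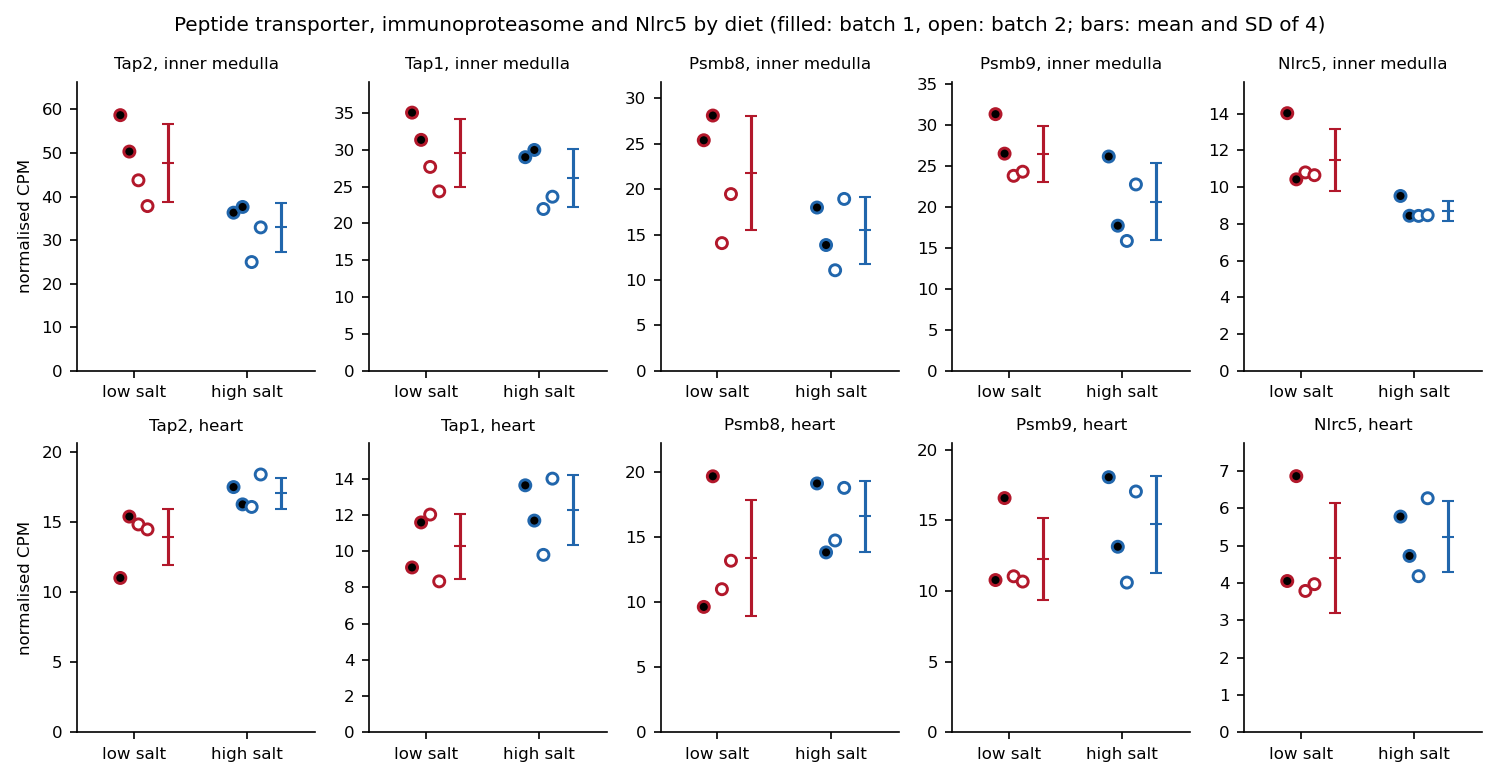
Normalised CPM of Tap2, Tap1, Psmb8, Psmb9 and Nlrc5 by diet, low salt left of high salt, in inner medulla (top) and heart (bottom); filled points are batch 1, open points batch 2 and bars the mean and SD of 4 libraries. Tap2 lies higher on low salt in inner medulla and lower on low salt in heart, without overlap in either tissue.

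Class II genes were lower in inner medulla than in heart. On a scale shared by both tissues, where values of inner medulla are lower than on its own table's scale, Cd74 was 39.3, 59.8, 35.2 and 27.4 normalised CPM in inner medulla, against 683, 606, 619.5 and 561 in heart, both on high salt. RT1-Da was 8.49, 10.5, 5.92 and 3.04 in inner medulla and 37.1, 41.1, 41.1 and 49.3 in heart. The log2 fold change (inner medulla over heart, ± SE) was -3.96 ± 0.23 for Cd74 and -2.65 ± 0.31 for RT1-Da, with adjusted p of 1e-09 and 2.02e-06 in edgeR. RT1-DOa and RT1-DOb met the 0.5 CPM level in heart but not in inner medulla, and RT1-M1-5, RT1-CE6 and RT1-S2 in inner medulla but not in heart, so the choice of members used their tissue difference, which is given without a test. Of the other class II RT1 genes and Cd74, 8 in all, 7 were called lower in inner medulla, all without overlap, and RT1-DMa was not. Over all genes 37% were called lower and 33.8% were lower without overlap.

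The B and D chains shared this gap. RT1-Ba was 5.06, 7.26, 3.87 and 2.71 in inner medulla and 23.8, 24.9, 20.8 and 27.5 in heart (-2.40 ± 0.33). RT1-Bb was 2.54, 5.84, 1.82 and 1.22 in inner medulla and 13.8, 29.2, 16.7 and 20.5 in heart (-2.90 ± 0.51). RT1-Db1 was 2.96, 5.53, 2.37 and 1.41 in inner medulla and 20.1, 25, 18.9 and 25.8 in heart (-2.94 ± 0.40). All 4 heart libraries exceeded all 4 inner medulla libraries for each. RT1-Db2, at 0.426, 0.323, 0.465 and 0.412 in inner medulla and 3.25, 2.06, 2.07 and 3.39 in heart, differed by -2.72 ± 0.39.

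The DO genes, which temper class II loading and met the membership level in heart only, were low in both tissues. RT1-DOa was 0.155, 0.209, 0.233 and 0.282 in inner medulla and 1.32, 1.05, 1.20 and 0.932 in heart. RT1-DOb was 0.0194, 0.152, 0.0634 and 0.0651 in inner medulla and 0.558, 0.964, 0.736 and 0.932 in heart. Ciita was also lower in inner medulla, at -2.15 ± 0.26. Macrophage and dendritic cell markers were lower in inner medulla for 15 of 15 and pan-leukocyte markers for 6 of 6, all called by edgeR. The summed level of the macrophage and dendritic cell list was 24.7 to 38.5 in inner medulla and 141 to 189 in heart. B cell markers were divided: of 5 tested, Cd79a and Cd79b were called higher in inner medulla and Ms4a1 and Pax5 lower, and the list summed to 9.79 to 21.8 in inner medulla and 4.38 to 6.19 in heart. The part of these cells in the class II difference was not tested.

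Class I genes stood on the other side. Of the 24 that met the level in both tissues, 14 were called higher in inner medulla and 1 lower, where 42.9% of all genes were called higher and 37% lower. Their median was 0.92 log2 units, against 0.16 for all genes tested. Summed, all 27 reached 1557 ± 384 normalised CPM in inner medulla and 855 ± 143 in heart (SD, n = 4 each). The largest difference was that of RT1-O1l1, at 3.56 ± 1.23, from 15.0, 11.4, 9.45 and 0.347 in inner medulla and 0.660, 1.62, 0.736 and 0 in heart, with overlap; its call was lost without high salt 3 of inner medulla. RT1-M1-5, a class I gene of the M region, was 0.930, 0.666, 0.888 and 0.955 in inner medulla and 0.203, 0.0438, 0.276 and 0.0981 in heart. It met the membership level in inner medulla but not in heart, so this difference is tied to its choice. RT1-CE15 was 19.2, 29.6, 12.4 and 15.3 in inner medulla and 7.61, 12.1, 3.82 and 9.13 in heart, and was called at 1.20 ± 0.34 (edgeR adjusted p = 0.00467). RT1-A3 was 36.2, 114, 23.1 and 28.8 in inner medulla and 14.3, 42.7, 10.2 and 18.7 in heart, 1.12 ± 0.58 with an adjusted p of 0.0902 in edgeR.

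B2m, unlike most class I heavy chain genes, was called lower in inner medulla. It was 773, 741, 575 and 621 in inner medulla and 952, 822, 635 and 928 in heart, -0.31 ± 0.12 with an adjusted p of 0.0344 in edgeR, and the tissues overlapped. This call held in 11 of the 16 fits that left out 1 library and was lost without high salt 2, 3 or 4 of inner medulla or high salt 1 or 4 of heart. Tapbp, the loading chaperone, was higher in inner medulla by 0.99 ± 0.07. Tap1, Tap2 and Nlrc5, at 0.15 ± 0.13, 0.01 ± 0.11 and -0.20 ± 0.18, were not called. The immunoproteasome subunits Psmb8, Psmb9 and Psmb10 were called lower, at -1.02 ± 0.24, -0.44 ± 0.19 and -0.46 ± 0.14, and the call of Psmb9 held in 7 of those 16 fits. With library totals in place of TMM Psmb8 was at -0.12 and no longer called (edgeR adjusted p = 0.642).

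Altogether 32 of 46 members were called between tissues, 17 higher and 15 lower in inner medulla, where 79.9% of all 19408 genes were called. Without the 5 members that met the level in 1 tissue the counts were 15 higher and 13 lower of 41. The scaling sets the zero of this comparison. With library totals in place of TMM the median of all genes was 1.06 in place of 0.16, and 31 members were called higher and 10 lower. With upper quartile scaling 21 were higher and 12 lower, around a median of 0.33. The shares of all genes called with these other scalings are not given here. The member counts under them are therefore not set against all genes here. Among the members that met the level in both tissues, the class II genes called lower, Cd74 and Ciita kept direction and call with library totals. So did the 14 class I genes called higher. B2m, Psmb9, Psmb10 and RT1-T24-4 turned positive, at 0.60, 0.47, 0.45 and 0.09. Each tissue is its own table, so tissue and table cannot be told apart.

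**Figure D5:**
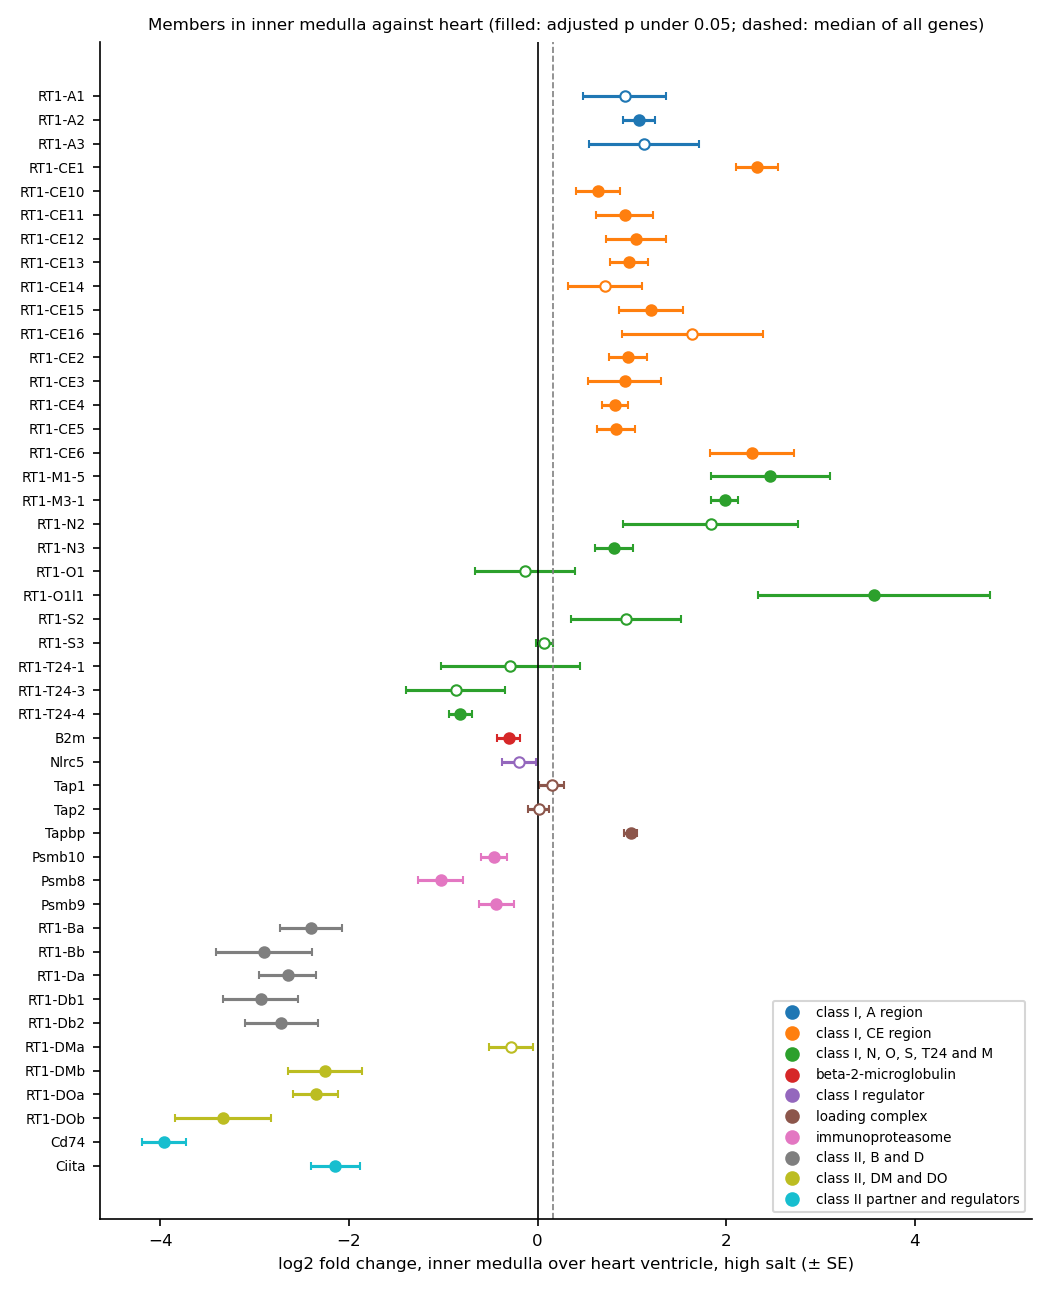
Log2 fold change of the 46 genes, inner medulla over heart on high salt, with bars for the SE of the fit, coloured by group; filled points have an adjusted p under 0.05 in edgeR and the dashed line is the median of all genes tested (0.16). RT1-DOa, RT1-DOb, RT1-M1-5, RT1-CE6 and RT1-S2 met the membership level in 1 tissue. Class I genes lie mostly right of that line and class II genes, Cd74 and Ciita left of it.

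Among genes of the same pathway outside the set, none was called for aldosterone by edgeR, where 0% of all genes were called. These were 7 class I peptide loading partners, such as calreticulin (Calr), 8 class II processing and transcription genes and 10 interferon gamma signalling genes. With no call over all genes, these lists could hold none. The smallest p among the class II processing genes was that of Ifi30, the thiol reductase of the endosome, at 0.24 (edgeR adjusted p = 0.299). On low salt in inner medulla, where 2.46% of all genes were called, these lists again held no call. Of 24 interferon-induced genes 1 was called there, Ifi44, which was lower, at -0.47 (edgeR adjusted p = 0.0271). In heart none was called by diet, against 0.0517% of all genes. Between tissues 4 of 7 loading partners were called higher and 2 lower in inner medulla, and of 8 class II processing and transcription genes 2 were higher and 4 lower, near the 79.9% of all genes called.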

How the data were processed

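The deposited files are 3 tables of expected counts (Salmon estimates) per gene, which the authors did not scale. Per the submitters' processing notes, bcl2fastq 2.19, Trimmomatic, Salmon and MultiQC were used, and per the labels' protocols the libraries were stranded, poly(A)-selected and read from one end. Salmon settings, strand option, build and annotation were not given in the sources used here. Rounded counts were filtered with edgeR 4.0.16 (filterByExpr, minimum count 10) in R 4.3.3, scaled by TMM and tested by the quasi-likelihood method with treatment and batch as terms, within each table. A joint fit of the 16 low-salt libraries gave tissues and the difference of responses. P-values were adjusted over all genes tested (Benjamini-Hochberg), with a threshold of 0.05. SE is the absolute log2 fold change over the square root of F. The procedure was tested on simulated data. No 2 libraries of a group agreed within sampling noise.

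Low-salt and high-salt heart libraries of the same number deviated together (r of 0.161 to 0.231 over all genes, every pair above 0.1), so the heart was also fitted with a replicate block. The same number was the best match for only 1 of 4, and the other best matches were libraries of the same batch. The genes, lists and motifs were chosen with earlier results of these data known. Genes named with a value in every library were RT1-A3, RT1-CE15 and B2m, members past the threshold in any comparison (at most 10 in each, by size), the 4 of widest range in each table and the smallest p of each treatment comparison. Others were picked after their values were seen. Alternatives were DESeq2 1.42.0, other scalings and filters, no batch term, a replicate block, single batches and leaving out each library. Gene lengths were not used, so levels are not compared between genes.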

Additional observations from a re-analysis of the deposited data

Results flagged for a closer look

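Among 126 groups of 4 libraries of the named genes, 8 had a library far from the other 3, and chance alone flags about 1 in 20 such groups. That rate need not hold here, because many of these genes were named for their range or calls in the same values. RT1-O1l1 was 17.4 normalised CPM in aldosterone 4, against 0.369 to 0.808 in the other aldosterone libraries, and RT1-CE16 was 779.7 in the same library, against 94.9 to 182 in the others. RT1-A3 was 157 in high-salt inner medulla 2, against 32.3 to 50.2 in the other high-salt inner medulla libraries. RT1-Bb was 13.6 in aldosterone 2, against 7.62 to 8.15 in the other aldosterone libraries. Control libraries stood apart for 4 genes. RT1-Bb was 7.23 and RT1-Db1 7.06 in control 3, against 2.75 to 3.35 and 3.53 to 3.86 in the other controls. RT1-Db2 was 1.06 in control 1, against 0.335 to 0.416. Tap2 was 52.6 in control 4, against 33.3 to 36.3.

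The response of Tap2 to low salt differed between inner medulla and heart, by 0.83 log2 units in the test of the difference itself (edgeR adjusted p = 0.0345), with inner medulla higher and heart lower on low salt. The call was lost with a replicate block of kidney and heart libraries (edgeR adjusted p = 0.0773). It held in 5 of the 16 fits that left out 1 library.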

How the results depend on the processing

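Counts of called members depended on the tool and on single libraries. DESeq2 called 6 members for aldosterone (edgeR 0), 9 between the batches of the aldosterone experiment (edgeR 4), 2 for low salt in inner medulla (edgeR 1) and 7 between its batches (edgeR 0). These DESeq2 counts stand without the shares of all genes that DESeq2 called. Between the batches of the aldosterone experiment 0 members were called in aldosterone libraries alone and 1 in controls alone, and leaving out 1 library gave 0 to 4. For low salt in inner medulla the count was 0 without the batch term, 0 in batch 1 alone, 0 in batch 2 alone and 0 to 1 without 1 library. With a replicate block in place of batch it was 0 (Tap2 adjusted p = 0.101 in edgeR), although same-numbered libraries there share only a number (r of -0.04 to 0.29). For the difference of responses the count was 0 with a replicate block of kidney and heart libraries (Tap2 adjusted p = 0.0773 in edgeR) and 0 to 1 without 1 library. The block moved the count of no other comparison by over 1.5 times, heart included. More than 4-fold spread held for 3 to 8 members in low-salt kidney and 3 to 8 in heart without 1 library, and for 5 in heart with a pseudocount of 1 CPM. With library totals between tissues B2m was 0.60, Psmb10 0.45, Psmb9 0.47 and RT1-T24-4 0.0887, the only reversals among 1776 values of single genes, of which 1657 kept direction and side of the threshold. The causes were not tested. Counting depth limits mainly genes near 1 CPM, such as RT1-DOb.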
